A study of Mus musculus with 6 samples.

Results

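Annexins and S100 proteins are the subject here: 10 genes, Anxa1, Anxa3, Anxa4, Anxa5, Anxa6, S100a1, S100a4, S100a6, S100a11 and S100a13, given by symbol and matched by Ensembl identifier among 56940 genes counted in each library. The 6 RNA sequencing libraries came from lens capsules of wildtype C57BL/6 mice, 3 libraries taken 5 days after removal of the fiber cell mass from the lens (a mouse model of cataract surgery) and 3 taken at the operation itself (0 h), each from 5 pooled capsules. The capsule is the basement membrane around the lens, and lens epithelial cells stay attached to it when the fibers are taken out. One eye was operated on first, and the second 5 days later, when both capsules were collected, so the 0 h capsules came from mice that already carried a 5-day wound in the other eye. No age is given for the mice, and the labels do not say whether a 5-day pool and a 0 h pool hold capsules of the same animals. Libraries were prepared from total RNA with a strand-preserving low-input kit (SMARTer Stranded Total RNA Pico).

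Annexins are cytosolic proteins that dock onto acidic phospholipids of membranes when calcium rises, through a core of repeated helical domains, and they take part in vesicle traffic, membrane resealing and, outside the cell, the control of inflammation. Most S100 proteins are small calcium sensors with a pair of EF-hands that work as dimers, and on binding calcium they expose a groove that holds target proteins. Targets of the S100 family include the amino-terminal tails of several annexins (S100A10 with annexin A2, S100A11 with annexin A1, S100A6 with annexin A11 in mammalian cells). Calcium handling has long been studied in the lens because calcium overload accompanies loss of transparency.

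Gene counts per library were 6207387, 7509954 and 8682659 at 5 days and 7709815, 9774343 and 8707928 at 0 h, and log values correlated at 0.969 to 0.982 between libraries of one time and at 0.801 to 0.846 across times. Levels are given as CPM (read counts scaled to library size with TMM factors), and a gene was called when edgeR's quasi-likelihood test, adjusted by Benjamini-Hochberg over 14676 tested genes, gave a value under 0.05. Cell type markers moved between the times. Summed macrophage and monocyte markers were at 579 to 813 CPM at 5 days and 21.7 to 44.2 CPM at 0 h (16 of 16 higher), with Ccr2 at 0 in all 0 h libraries. Neutrophil markers were at 16.1 to 29.1 CPM at 5 days and 0.119 to 0.329 CPM at 0 h. Of these 10, 2 (Ly6g and Camp) were at 0 at 5 days and 8 at 0 h. Only 3 were tested, all higher, and the 5-day sum was mostly Csf3r (mean 15.2 CPM). The list includes S100a8 and S100a9. T, NK and dendritic cell markers were at 2.26 to 3.98 CPM at 5 days and 0.119 to 0.549 CPM at 0 h. Of these 8, 5 were at 0 at 5 days and 6 at 0 h. Nkg7 had 0 counts at 5 days and 5 at 0 h, and only Flt3 was tested (higher). Summed lens epithelial markers were at 7691 to 22218 CPM at 5 days and 78376 to 95656 CPM at 0 h (7 of 8 lower, Pax6 higher), and lens fiber markers at 2753 to 11884 CPM and 64149 to 73389 CPM (8 of 8 tested lower). The lens epithelial sum was mostly Cryaa (means 11188 CPM at 5 days and 62314 CPM at 0 h) and Cryab (3107 and 19625 CPM). Its other markers were far lower, the largest mean being Aldh1a1 at 0 h (1331 CPM, against 420 CPM at 5 days), while Pax6 was at 791 and 651 CPM. Fibroblast and keratocyte markers lay at 971 to 1531 CPM at 5 days and 336 to 359.9 CPM at 0 h. Of the 5 tested, 3 were higher, Pdgfra was lower and Thy1 was not called, Kera was at 0 at both times, and the sum was mostly Col1a1 at 5 days (mean 943 CPM) and Pdgfra at 0 h (mean 335 CPM). Endothelial markers lay at 26.4 to 50.9 CPM at 5 days and 7.81 to 14.6 CPM at 0 h (3 of 5 tested higher), and photoreceptor markers at 34.5 to 98.9 CPM and 523 to 793 CPM (8 of 8 lower). Retinal glia markers lay at 369 to 386 CPM at 5 days and 389 to 514 CPM at 0 h, with Gfap and S100b higher and the other 4 lower. Pigment cell (12.4 to 39.7 and 18.3 to 45.8 CPM), corneal epithelium (4.02 to 68.9 and 9.78 to 14.8 CPM), muscle (8.91 to 27.7 and 6.25 to 7.68 CPM) and erythrocyte markers (0.318 to 4.14 and 1.07 to 1.21 CPM), each with 5 days before 0 h, completed the set. Of the muscle markers 3 of 4 tested were higher and 1 lower, and of the pigment cell markers 1 of 5 tested was lower. The only tested corneal marker, Krt15, was lower. The untested Krt14 had 422 counts at 5 days and 1 at 0 h, Krt5 185 and 2, and Krt12 21 and 0, and the corneal sum varied widely between the 5-day libraries. The part of these other cells in the results that follow was not tested, and in bulk tissue fewer cells of a type cannot be told apart from less RNA per cell.

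All 10 genes passed the filter on low counts. At 5 days 8 of the 10 rose, Anxa1 fell, and S100a4 was not called; over all tested genes 47.6% were called, 25.1% higher and 22.5% lower. The median log2 fold change, 5 days over 0 h, was 0.87 for the 10 genes and -0.01 over all tested genes. The CPM of the groups did not overlap for 9 of the 10 genes, against 58.1% of all tested genes. Within the 10 genes the changes ran from an Anxa1 level about 0.498 times that at 0 h to an S100a13 level 4.55 times that at 0 h. The summed level of the 10 genes overlapped between the times, with 1659, 1602 and 1756 CPM at 5 days and 1502, 1777 and 1729 CPM at 0 h.

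**Figure D1:**
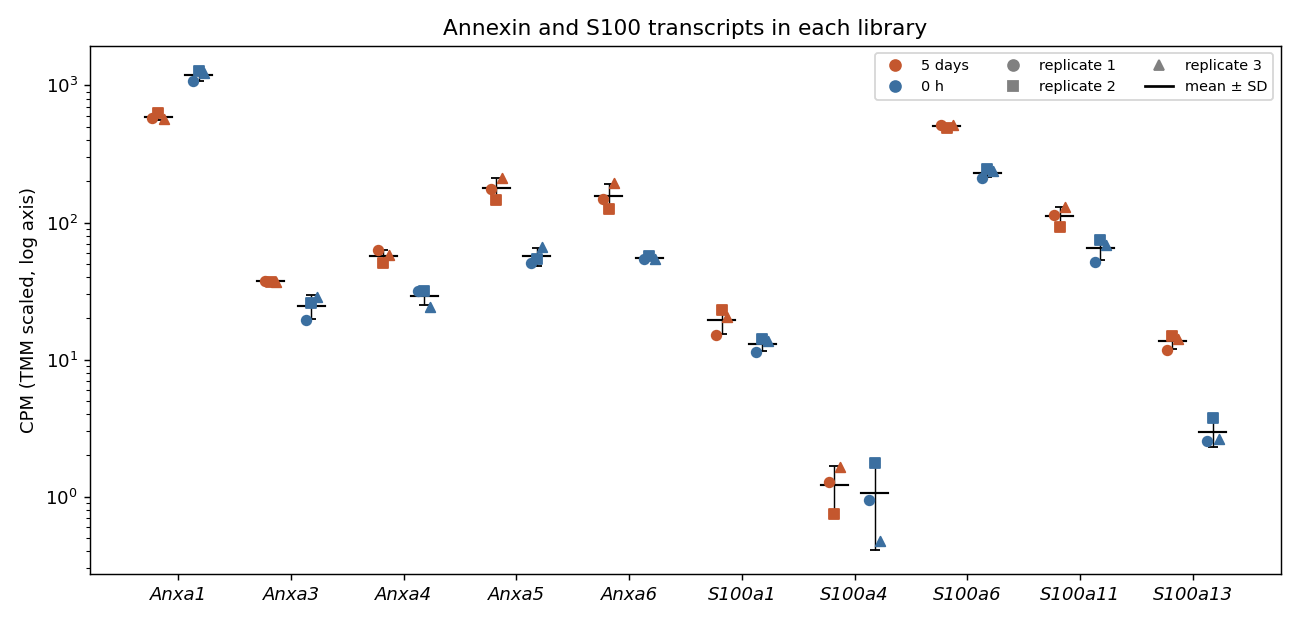
CPM (log axis) of the 10 genes in each library, with 5 days left of 0 h for every gene, symbols for the replicates and bars for the mean and SD of 3 libraries. Anxa1 lies lower at 5 days (569.7 to 624 CPM, against 1068 to 1267 CPM at 0 h), 8 genes lie higher, and the S100a4 points of both times overlap.

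Anxa1 was the most abundant of the annexins at 0 h. It encodes annexin A1, also known as lipocortin 1, whose secreted amino-terminal peptide acts on formyl peptide receptors to limit inflammation. It was measured at 582, 624 and 569.7 CPM in the 5-day libraries, against 1068, 1267 and 1234 CPM in the 0 h libraries. All 3 libraries at 5 days were below the lowest one at 0 h, and the spread within a time was small, with the highest library 1.10 times the lowest at 5 days and 1.19 times at 0 h. The log2 fold change was -1.01 (SE 0.11, adjusted p = 1.46e-05), and Anxa1 was the only member of the 10 called lower. A noncoding gene on the opposite strand of its locus, 1500015L24Rik, shares no exon with it and had 4 to 11 counts per library at 5 days and 55 to 58 at 0 h.

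Anxa5 and Anxa6 rose most among the 5 annexins of the set. Annexin A5 forms lattices on exposed phosphatidylserine, the property used to stain dying cells, and annexin A6 is the large family member with a duplicated core. Anxa5 was at 176, 145 and 212 CPM at 5 days, against 50.5, 53.9 and 66.3 CPM at 0 h, a log2 fold change of 1.64 (SE 0.15, adjusted p = 2.46e-06). Anxa6 was at 148, 125 and 195 CPM at 5 days, against 54.4, 57.3 and 54.1 CPM at 0 h, a log2 fold change of 1.50 (SE 0.15, adjusted p = 4.54e-06). For both genes 5-day replicate 3 was the highest library and 5-day replicate 2 the lowest of its time, and every 5-day library lay above every 0 h library. Anxa6 spread more at 5 days (highest over lowest library 1.56) than at 0 h (1.06). Across the 10 genes the highest 5-day library was replicate 3 for 5 genes, replicate 2 for 3 and replicate 1 for 2.

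Anxa4 and Anxa3 rose by less. Annexin A4 is found along membranes of epithelial and secretory cells, and annexin A3 is a phospholipid-binding annexin known from neutrophils in humans. Anxa4 was at 63.2, 50.9 and 58.0 CPM at 5 days, against 31.9, 31.5 and 24.3 CPM at 0 h, with a log2 fold change of 0.97 (SE 0.14, adjusted p = 9.66e-05). Anxa3 was at 37.6, 36.8 and 37.1 CPM at 5 days, against 19.4, 25.8 and 28.9 CPM at 0 h, with a log2 fold change of 0.59 (SE 0.15, adjusted p = 0.00646). Neither gene's groups overlapped. The 5-day values of Anxa3 lay within 1.02-fold of each other, whereas those at 0 h spanned 1.49-fold. A short same-strand gene of unproven coding status, Gm42603, shares 112 exon bases with Anxa3 in GENCODE M21 and had 15, 22 and 25 counts at 5 days and 2, 0 and 3 at 0 h, while Anxa3 itself had 236, 293 and 339 counts at 5 days and 144, 235 and 242 at 0 h. Anxa4 shares 75 exon bases with Gm44036 on the opposite strand, which had at most 3 counts in any library.

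The 5 S100 genes of the set all lie on chromosome 3, in a group of 13 S100 genes there, while the 5 annexins lie on chromosomes 3 (Anxa5), 5 (Anxa3), 6 (Anxa4), 11 (Anxa6) and 19 (Anxa1). The stretches before the starts of 3 of them are shown because S100a6 and S100a11 were called higher and S100a4 was not; whether their changes differ was not tested. Each window ends shortly before the RefSeq start (build GRCm38.p6, plus strand, 5′ to 3′), at chr3:93520246-93520483 for S100a11, chr3:90612644-90612881 for S100a6 and chr3:90603520-90603757 for S100a4. Also shown are the 42 bases at chr3:90514393-90514434 (GRCm38.p6, plus strand) between the GENCODE M21 starts of S100a1 and S100a13, which are read away from each other; in RefSeq the ranges of both genes overlap. Capitals mark the motif matches described after the sequences.
S100a11: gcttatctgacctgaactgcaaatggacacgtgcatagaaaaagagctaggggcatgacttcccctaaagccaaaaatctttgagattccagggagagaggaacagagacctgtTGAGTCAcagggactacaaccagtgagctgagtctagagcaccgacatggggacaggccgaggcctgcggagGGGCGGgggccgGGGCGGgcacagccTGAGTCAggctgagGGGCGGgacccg
S100a6: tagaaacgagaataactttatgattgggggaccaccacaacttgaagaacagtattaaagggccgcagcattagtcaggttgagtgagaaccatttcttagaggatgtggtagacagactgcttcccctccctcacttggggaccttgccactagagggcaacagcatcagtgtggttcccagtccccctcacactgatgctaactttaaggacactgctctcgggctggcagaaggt
S100a4: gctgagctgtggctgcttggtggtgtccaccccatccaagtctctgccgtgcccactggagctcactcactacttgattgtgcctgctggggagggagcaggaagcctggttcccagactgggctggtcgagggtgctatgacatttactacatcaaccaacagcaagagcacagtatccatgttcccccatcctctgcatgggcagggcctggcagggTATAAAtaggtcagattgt
S100a1-S100a13: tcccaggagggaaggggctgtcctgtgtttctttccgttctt
Both strands were searched for the AP-1 element TGANTCA, which reads the same on both strands, the TEAD element GGAATG, the Sp1 element GGGCGG and the element TATAAA. S100a11 held 2 AP-1 and 3 Sp1 matches, none of them overlapping, S100a4 held 1 TATA match, and the S100a6 window and the shared S100a1 and S100a13 stretch held none of the 4. Of 32851 RefSeq promoter windows of the same length, 6.5% held the AP-1 letters, 12.1% the TEAD letters, 31.0% the Sp1 letters and 12% the TATA letters. RefSeq had a promoter entry for 8 of the 10 genes, of which 1 held AP-1 letters (S100a11), 1 TEAD letters (Anxa1), 1 Sp1 letters (S100a11) and 2 TATA letters (Anxa1 and S100a4). These matches describe letters in a window and were not tested against the expression changes.

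S100a6 and S100a11 both rose, and S100a6 was the most abundant S100 gene at both times. S100A6, or calcyclin, binds the calcyclin-binding protein Cacybp and annexin A11, and S100A11 binds annexin A1. S100a6 was at 511, 489 and 517 CPM at 5 days, against 211, 247 and 236 CPM at 0 h, with a log2 fold change of 1.13 (SE 0.10, adjusted p = 2.33e-06). S100a11 was at 113, 93.1 and 129.9 CPM at 5 days, against 51.4, 75.2 and 68.9 CPM at 0 h, with a log2 fold change of 0.78 (SE 0.15, adjusted p = 0.00115). The 5-day libraries of S100a6 lay within 1.06-fold of each other and all above each 0 h library. For S100a11 the gap was narrower, between 93.1 CPM in the lowest 5-day library and 75.2 CPM in the highest 0 h library.

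S100a13 had the largest rise of the 10 genes from a low level, and its head-to-head neighbour S100a1 rose by less. S100A13 takes part in the release of FGF1 and interleukin-1 alpha, which lack a secretion signal, and S100A1 is the muscle S100 protein that acts on the ryanodine receptor and the SERCA calcium pump. S100a13 was at 11.8, 14.8 and 14.2 CPM at 5 days, against 2.56, 3.73 and 2.62 CPM at 0 h, from 74, 118 and 130 counts at 5 days and 19, 34 and 22 at 0 h. Its log2 fold change was 2.18 (SE 0.26, adjusted p = 2.40e-05), and the lowest 5-day library stood well above the highest 0 h library. S100a1 was at 15.1, 23.0 and 20.5 CPM at 5 days, against 11.3, 14.2 and 13.7 CPM at 0 h, with a log2 fold change of 0.58 (SE 0.19, adjusted p = 0.0263). The groups of S100a1 did not overlap, but the lowest 5-day library was near the highest 0 h library, and the call was lost without 0 h replicate 1 (adjusted p = 0.0977), 0 h replicate 3 (0.0535), 5-day replicate 2 (0.0945) or 5-day replicate 3 (0.0533). Both genes share no exon in GENCODE M21 and are read from opposite strands, and the strand setting of the counting is not given in the sources used here.

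S100a4 was barely detected. S100A4, also called metastasin or fibroblast-specific protein 1, binds nonmuscle myosin IIA and is often used as a marker of fibroblasts and of epithelial to mesenchymal transition. It had 8, 6 and 15 counts at 5 days (1.27, 0.753 and 1.64 CPM), against 7, 16 and 4 counts at 0 h (0.943, 1.76 and 0.477 CPM). The groups overlapped, with both the highest and the lowest library at 0 h. The log2 fold change was 0.20 (SE 0.59, adjusted p = 0.808), with a 95% confidence interval from -1.08 to 1.48. In GENCODE M21 S100a4 shares 302 exon bases with Gm42674 on the same strand, which had 0 counts in all 6 libraries; how reads in shared bases were counted is not given, and the S100a4 level may be understated where such reads were set aside.

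Levels can be set beside each other between genes only per length, and CPM per kilobase of exon (all annotated exons of a gene merged, GENCODE M21) was used. At 5 days S100a6 was highest at 369.9 ± 10.9 CPM per kb (SD, n = 3, as for the other values here), followed by S100a11 at 219 ± 36.0, Anxa1 at 203 ± 9.79, Anxa5 at 100.1 ± 19.0 and Anxa6 at 53.2 ± 12.2. Then came S100a1 at 28.1 ± 5.79, S100a13 at 19.0 ± 2.26, Anxa4 at 12.3 ± 1.33, Anxa3 at 10.2 ± 0.105 and S100a4 at 2.09 ± 0.765. At 0 h Anxa1 led at 409 ± 36.6 CPM per kb, before S100a6 at 169 ± 13.5, S100a11 at 128 ± 24.0, Anxa5 at 32.0 ± 4.68, Anxa6 at 18.9 ± 0.593, S100a1 at 18.8 ± 2.20, Anxa3 at 6.77 ± 1.32, Anxa4 at 6.30 ± 0.919, S100a13 at 4.15 ± 0.921 and S100a4 at 1.81 ± 1.11. Neighbours in this order whose libraries overlapped were S100a11 and Anxa1 at 5 days, and Anxa6 with S100a1 and Anxa3 with Anxa4 at 0 h. With the longest transcript as the length, the order at 5 days differed in that Anxa1 (354 CPM per kb) lay above S100a11 (219), and Anxa3 (23.3) and Anxa4 (21.9) lay above S100a13 (19.0).

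The makeup of the annexin family differed between the times, while its summed level overlapped. The 10 tested annexins together were at 564 ± 47.5 CPM per kb at 5 days and 524 ± 44.5 CPM per kb at 0 h. Anxa1 made up 36.3 ± 4.69% of that level at 5 days and 77.9 ± 1.03% at 0 h, Anxa2 28.9 ± 1.68% and 6.78 ± 0.382%, Anxa5 17.7 ± 1.90% and 6.10 ± 0.642%, and Anxa6 9.36 ± 1.35% and 3.61 ± 0.288%, each with 5 days first. No library at 5 days had an Anxa1 share as high as any at 0 h, the closest being 41.2% in 5-day replicate 2 and 77.1% in 0 h replicate 3. The 9 tested S100 genes together were at 761 ± 48.3 CPM per kb at 5 days and 422 ± 56.5 CPM per kb at 0 h. S100a6 made up 48.7 ± 1.81% of it at 5 days and 40.3 ± 2.35% at 0 h, S100a11 28.6 ± 2.97% and 30.1 ± 1.79%, and S100a10 10.6 ± 1.07% and 20.5 ± 0.802%. S100a13 stayed a small share, 2.51 ± 0.361% at 5 days and 0.982 ± 0.136% at 0 h. With the longest transcript as the length, S100a10 (24.6%) lay above S100a11 (20.4%) at 0 h. None of these shares was tested.

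**Figure D2:**
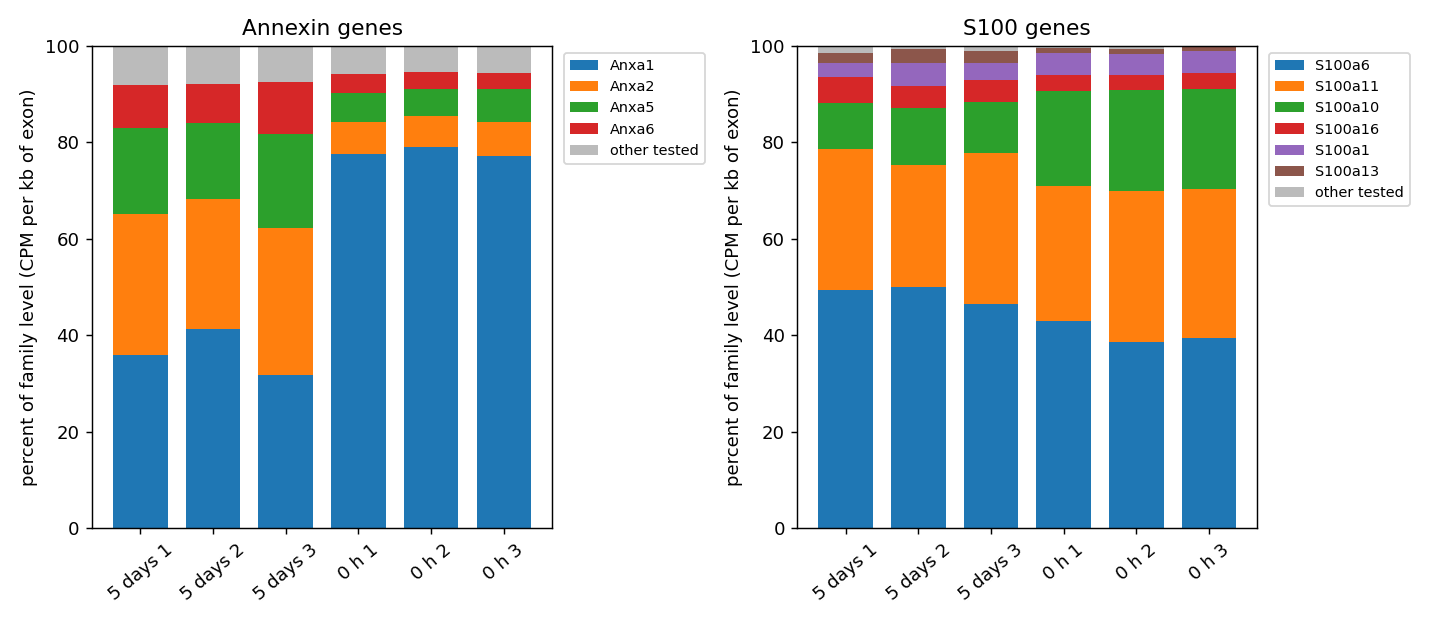
Percent of the summed annexin level and of the summed S100 level (CPM per kb of exon) held by each gene in each library, 5 days on the left and 0 h on the right. Anxa1 holds 31.9 to 41.2% of the annexin level in the 5-day libraries and 77.1 to 79.1% in the 0 h libraries, and S100a6 holds 46.6 to 49.9% and 38.6 to 43.0% of the S100 level.

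The annexins outside the set moved mostly upward too: of 7, 5 were tested, 4 rose and 1 fell, and their median log2 fold change was 1.88. Over all tested genes 25.1% were called higher and 22.5% lower. In the 7 related lists together 37 of 80 tested genes were higher and 17 lower. Anxa2, which forms a tetramer with S100A10 that links membranes to actin, rose to 609 ± 85.8 CPM at 5 days, against 133 ± 14.4 CPM at 0 h (log2 fold change 2.20, SE 0.13, adjusted p = 8.17e-08). Its partner gene S100a10 was at 97.7 ± 8.73 CPM at 5 days and 105 ± 17.8 CPM at 0 h and was not called (log2 fold change -0.10, SE 0.13, adjusted p = 0.539), and with total gene counts as the scaling its fold change had the other sign (0.029). Anxa8 had 42, 44 and 92 counts at 5 days and 0, 4 and 0 at 0 h (log2 fold change 5.42, SE 0.69, adjusted p = 4.43e-05). All 0 h counts of Anxa8 lay in 0 h replicate 2 (0.439 CPM), while the 5-day libraries were at 6.68, 5.53 and 10.1 CPM. Its log2 fold change was 4.94 without 0 h replicate 1 and 4.87 without 0 h replicate 3. Without 0 h replicate 2 no counts remained at 0 h, so the other 0 h libraries cannot give the size of the rise. Anxa9 (1.88) and Anxa7 (0.59) rose, and Anxa11, which binds S100A6, fell to 25.3 ± 3.62 CPM at 5 days, against 38.9 ± 6.17 CPM at 0 h (log2 fold change -0.62, SE 0.15, adjusted p = 0.00518). Anxa10 and Anxa13 had 0 counts in all libraries.

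Of 11 further S100 genes, 4 passed the filter, 3 rose (25.1% of all tested genes did) and S100a10 was not called. The median log2 fold change was 2.57 with S100a9 at its lower bound. S100a16 rose to 59.3 ± 5.51 CPM at 5 days, against 21.8 ± 1.88 CPM at 0 h (log2 fold change 1.44, SE 0.12, adjusted p = 1.74e-06). S100a9, encoding a subunit of calprotectin of neutrophils and monocytes, had 22, 10 and 19 counts at 5 days and 0 in each 0 h library, so its level was at least 18.1-fold higher at 5 days, taking 3 counts over the 0 h group as the floor. Its partner S100a8 had 29 counts over the 5-day libraries and 0 over the 0 h libraries and did not pass the filter. S100b, a glial S100 gene that is also one of the retinal glia markers, had 14, 16 and 24 counts at 5 days and 3, 0 and 1 at 0 h (log2 fold change 3.70, SE 0.73, adjusted p = 0.00125), and 4.98 without 0 h replicate 1, 3.09 without 0 h replicate 2. S100a7a had 9 and 10 counts and S100a14 10 and 2, at 5 days and 0 h, S100a5 had 1 count in all, and S100a3, S100g and S100z had 0.

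**Figure D3:**
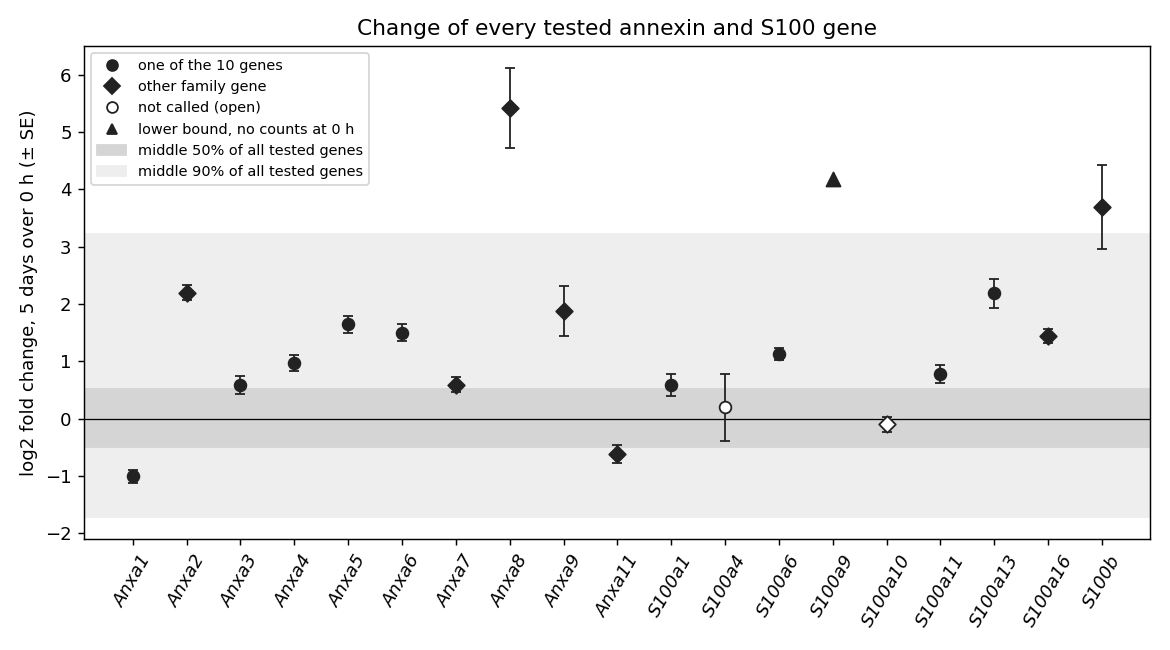
log2 fold change, 5 days over 0 h, of every tested annexin and S100 gene, with SE, against bands that hold the middle 50% (-0.50 to 0.52) and the middle 90% (-1.72 to 3.23) of all tested genes. S100a9 is drawn at its lower bound, open symbols were not called, and among the 10 genes Anxa1 alone lies below 0.

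Of 20 targets and receptors of these proteins, 15 were tested, 5 rose and 5 fell, against 25.1% higher and 22.5% lower over all tested genes. Their median log2 fold change was -0.18, and 3 were called lower without 0 h replicate 2. With total gene counts as the scaling 6 were called higher and 3 lower. Under that scaling 4438 of all 14676 tested genes were called higher and 2613 lower, against 3683 and 3301 with TMM. Myh9, the nonmuscle myosin IIA heavy chain bound by S100A4, rose to 6280, 5152 and 8853 CPM at 5 days, against 928, 968 and 906 CPM at 0 h (log2 fold change 2.86, SE 0.19, adjusted p = 2.33e-07). The cargoes of S100A13 moved apart. Il1a, encoding interleukin-1 alpha, had 16, 24 and 26 counts at 5 days and 0 in each 0 h library, at least 23.5-fold higher, whereas Fgf1 was at 6.68, 9.92 and 6.90 CPM at 5 days, against 67.2, 70.5 and 78.3 CPM at 0 h (log2 fold change -3.19, SE 0.16, adjusted p = 2.23e-08). Cacybp, the partner of S100A6, fell to 55.3 ± 0.964 CPM at 5 days, against 79.2 ± 11.8 CPM at 0 h (log2 fold change -0.52, SE 0.12, adjusted p = 0.00334). Atp2a2, the SERCA pump on which S100A1 acts, rose (0.69, adjusted p = 0.000146), and the ryanodine receptor gene Ryr2 fell (-0.68, adjusted p = 0.0270). Fpr1 had 3 counts over the 5-day libraries and 0 over the 0 h libraries, Fpr2 had 6 and 0, and Fpr3 had 0 at both times, so the formyl peptide receptors of annexin A1 were not testable at this depth. Ager, the receptor for extracellular S100 proteins, was at 2.78 ± 1.17 CPM at 5 days and 3.12 ± 0.524 CPM at 0 h and was not called (adjusted p = 0.744).

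Among genes of membrane repair, ferlins and caveolae, 13 of 20 were tested, 8 rose and 2 fell (25.1% and 22.5% over all tested genes). Their log2 fold changes had a median of 0.38. The ferlin genes Dysf and Myof, whose products drive vesicle fusion at membrane wounds, rose with log2 fold changes of 6.63 (SE 0.26, adjusted p = 5.07e-09) and 2.95 (SE 0.13, adjusted p = 8.00e-09). Dysf was at 84.0, 82.4 and 112 CPM at 5 days and 1.35, 1.10 and 0.358 CPM at 0 h, with no overlap. Ahnak, a giant scaffold protein that binds annexin A2 and S100A10, was at 3225 ± 114 CPM at 5 days and 2546 ± 163 CPM at 0 h (log2 fold change 0.34, SE 0.12, adjusted p = 0.0342), a call lost without 0 h replicate 2 (0.0953), 0 h replicate 3 (0.149) or 5-day replicate 1 (0.0702), and with either replicate block. Cavin2, a caveolar coat gene, fell to 6.69 ± 2.19 CPM at 5 days, against 92.7 ± 5.94 CPM at 0 h (log2 fold change -3.82, SE 0.19, adjusted p = 2.29e-08). It was the only gene of the list called lower without 0 h replicate 1, 2 or 3 or 5-day replicate 3. The same held with DESeq2, with total gene counts and with the replicate block by library name.

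Other calcium-binding families moved by less on the median. The counts called in them stand beside 25.1% higher and 22.5% lower over all tested genes. Of 12 penta-EF-hand genes, 7 were tested, 4 rose and 1 fell, with a median of 0.38; Capn2, the large subunit of m-calpain, had a log2 fold change of 0.43 (SE 0.10, adjusted p = 0.00449) and Sri, the calcium sensor sorcin, -0.72 (SE 0.12, adjusted p = 0.000265). Pdcd6, the sensor that recruits ESCRT proteins, was called at 0.53 (SE 0.20, adjusted p = 0.0460), and the call was lost in 10 of 15 other settings, among them the removal of any library other than 5-day replicate 2. The number of these genes called higher was 2 without 0 h replicate 1, 5-day replicate 1 or 5-day replicate 3 and 1 without 0 h replicate 3. The number called lower was 2 without 0 h replicate 1 or 5-day replicate 2. It was also 2 without the low-count filter and with the replicate block by title number. Of 19 calmodulins, calbindins and neuronal calcium sensors, 13 were tested, 3 rose and 4 fell, with a median of -0.28. Calm3, encoding calmodulin, fell to 236 ± 7.44 CPM at 5 days, against 541 ± 65.2 CPM at 0 h (log2 fold change -1.20, SE 0.11, adjusted p = 3.08e-06). Ncs1 rose (1.84, SE 0.19, adjusted p = 8.51e-06), and Rcvrn, the photoreceptor protein recoverin and one of the photoreceptor markers, fell (-2.64, SE 0.46, adjusted p = 0.000493). Of 26 genes of calcium entry, stores and extrusion, 25 were tested, 11 rose and 5 fell, with a median of 0.31. Piezo2, a mechanically gated cation channel, rose to 1093 ± 96.1 CPM at 5 days, against 100.5 ± 9.65 CPM at 0 h (log2 fold change 3.44, SE 0.13, adjusted p = 3.28e-09). Of the plasma membrane calcium pump genes, Atp2b4 and Atp2b1 rose and Atp2b2 fell. Atp2b4 was at 180.4 ± 42.4 CPM at 5 days and 27.5 ± 3.29 CPM at 0 h (log2 fold change 2.71, SE 0.16, adjusted p = 9.34e-08), and Atp2b1 at 108 ± 15.7 CPM and 34.5 ± 3.44 CPM (1.65, SE 0.13, adjusted p = 7.03e-07). Atp2b2 was at 3.83 ± 0.971 CPM at 5 days and 19.7 ± 2.20 CPM at 0 h (-2.34, SE 0.23, adjusted p = 5.72e-06).

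**Figure D4:**
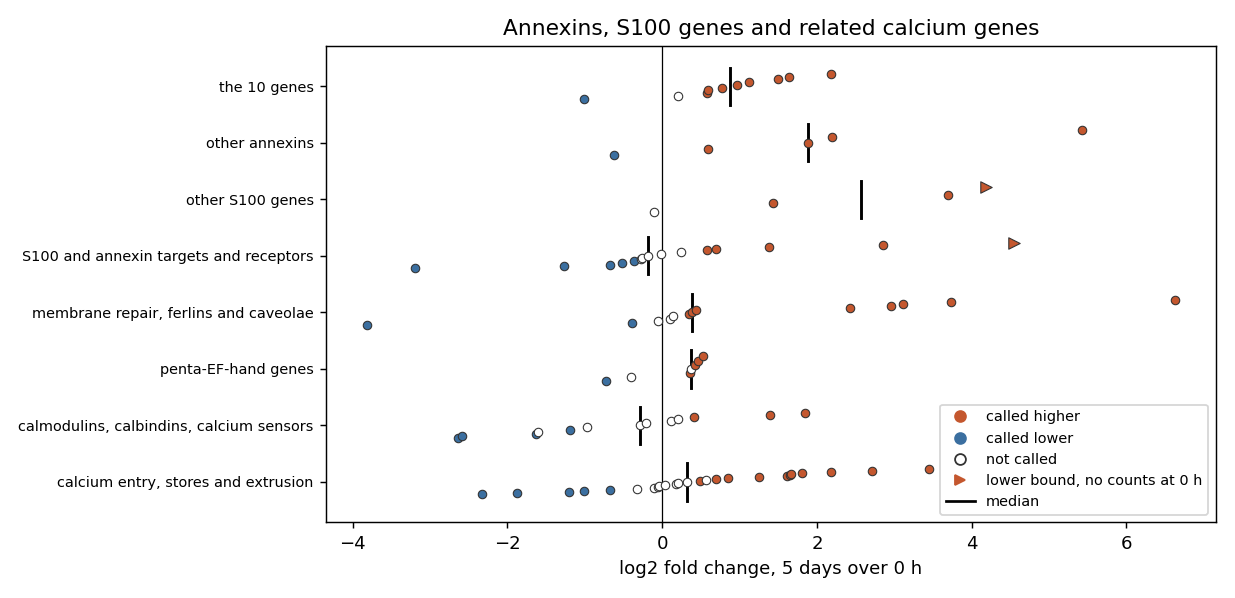
log2 fold change, 5 days over 0 h, of every tested gene of the 10 genes and the 7 related lists, one point per gene and a bar at each list's median; triangles are lower bounds for genes without counts at 0 h. The medians are 0.87 for the 10 genes, 1.88 for other annexins and 2.57 for other S100 genes, and between -0.28 and 0.38 for the other lists.

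The genes whose levels over the 6 libraries ran most like those of S100a13 and Anxa1 were found by the root mean square difference of centred log2 CPM profiles. For S100a13 they were Nebl (0.136), Bach1 (0.136) and Prune2 (0.138). For Anxa1 they were Sod1 (0.0325), Smim10l1 (0.0467) and Msx1 (0.0480). Sod1, the cytosolic superoxide dismutase, was at 52.2 CPM at 5 days and 105 CPM at 0 h.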

How the data were processed

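Each library's deposited file lists raw read counts per Ensembl gene; per the submitters' processing notes, reads were aligned with HISAT2 to GRCm39 and counted with HTSeq, and edgeR is also named. Neither versions nor the annotation, strand option or overlap mode of the counting could be taken from the labels, which leaves values of genes that overlap on either strand uncertain. The HTSeq summary entries (32.3 to 42.6% of reads, including ambiguous reads at 1.48 to 1.74%) were left out. Symbols were matched for 91.2% of 56940 identifiers with GENCODE M21 (GRCm38), which also gave exon lengths; promoter sequences and chromosomes came from RefSeq GRCm38.p6. edgeR 4.0.16 in R 4.3.3 was applied to the 6 libraries (filterByExpr, TMM, quasi-likelihood test without covariates, Benjamini-Hochberg over 14676 genes, threshold 0.05), and the code was tested on simulated data; limma 3.58.1 and DESeq2 1.42.0 were alternatives, as were other scalings, filters, replicate blocks and the omission of each library. Figures used matplotlib 3.10.9 under Python 3.11.15.

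The 10 genes and all lists were chosen with earlier results of these data known. From each list the text names the called gene with the highest level, the largest rise and the largest fall, and for the members with the largest called rise and fall the 3 genes of most similar profile (0.5 added to CPM, mean log2 CPM of at least 5); the remaining annexins and S100 genes, the formyl peptide receptors, Ager, Cacybp, Atp2b1, Atp2b4, Atp2a2, Ryr2 and Myof were named after their values were seen. The labels call the pools separate samples, but p-values measure only the spread between 3 libraries per time. Floors of 3 counts cover counting error only. SE values of the fold changes were derived from the quasi-likelihood test, as the absolute log2 fold change over the square root of its F value. Confidence intervals were built from these SE values with t quantiles.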

Additional observations from a re-analysis of the deposited data

How the results depend on the processing

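Over 15 other settings, 6 of them leaving out a library, 7 to 8 of the 10 genes were called higher and 1 lower, and 3164 to 4438 genes were called higher and 2604 to 3475 lower in all. Every member other than S100a1 and S100a4 stayed called in each setting. Scaling by total gene counts moved the median log2 fold change by 0.13 and the share of calls that were upward to 62.9%, against 52.7% with TMM. The S100a1 call was lost in 5 settings (adjusted p 0.0518 to 0.0977). The sign turned for 2 genes that were not called: S100a4 had a log2 fold change of -0.16 without 0 h replicate 3 (up to 0.46 with others left out), and S100a10 of 0.029 with total gene counts; the cause was not tested. With the longest transcript as length, Anxa1 made up 41.1% of the annexin level at 5 days and 81.0% at 0 h, and S100a6 57.9% and 47.8% of the S100 level. Total gene counts gave 5 calmodulin-list genes called higher, 6 targets and receptors higher and 3 lower, and 1 membrane repair gene lower. Over all tested genes that scaling gave 4438 higher and 2613 lower, against 3683 and 3301 with TMM. The labels do not say that the numbers pair the pools, so they were not taken to do so. Deviations from the mean of each time correlated weakly between same-numbered libraries (r = 0.0405, -0.0909 and 0.0522) and between differently numbered ones (-0.104 to 0.0743). With 3 libraries per time these values cannot show or exclude pairing. A replicate block by title number left 8 members higher and 1 lower (3550 and 3188 genes), and one by the number in the library name 7 and 1 (3164 and 2604 genes). In the block by library name, libraries whose number occurs at only 1 time add nothing to the change, so that fit rests on fewer than 6 libraries. The Ahnak call was lost under both blocks (adjusted p = 0.0935 and 0.136), and the block by library name called 4 targets and receptors higher and 3 lower. S100a4, at 4 to 16 counts per library, was tested in 12 of the 15 settings.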
